A study of Mus musculus with 16 samples.

Results

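The nuclear genes for the subunits of respiratory complexes II to V, together with the electron carrier cytochrome c, were followed in mouse cerebellum with and without the DNA damage kinase Atm and with and without the NAD+ precursor nicotinamide riboside (NR). Members were chosen by name alone: the gene to which a probe's accession belongs had to be Sdha, Sdhb, Sdhc, Sdhd, Cyc1 or Cycs, or had to start with Uqcr, Cox4, Cox5, Cox6, Cox7, Cox8 or Atp5, with pseudogenes left out. This gave 49 genes, of which 48 had a probe, and 46 of them with 61 probes stood among the 16733 named genes that could be tested. The 46 genes were all 4 of complex II, all 9 of complex III, cytochrome c itself, 15 of 18 of complex IV and all 17 of complex V. Cox5b had no matching probe, the probe of Cox7b was lost to a spot that the scanner software marked as an outlier on 1 array, and Cox8c was well above background on 2 of 16 arrays. Beyond the genes with values below, the members tested were Sdhc, Sdhd, Uqcr10, Uqcr11, Uqcrb, Uqcrh, Cox7c, Atp5a1, Atp5e, Atp5j, Atp5j2, Atp5k, Atp5l, Atp5md, Atp5o and Atp5pb.

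The mice were WT or Atm-/- littermates of the strain B6;129S4-Atmtm1Bal/J, labelled male and 3.5 months old, and gave 1 array each, 4 per group. From 6 weeks of age and for 2 months they drank plain water (WT veh, Atm-/- veh) or water with 3.5 mg/ml (12 mM) NR (WT NR, Atm-/- NR). RNA came from a piece of cerebellar cortex of each mouse with all its cell types, so fewer cells of a type and less RNA per cell cannot be told apart. All WT samples lay on 1 slide and all Atm-/- samples on another, and therefore slide and genotype cannot be told apart, while NR was compared with water within each slide. On both slides the water samples lay in row 1 and the NR samples in row 2, so that treatment cannot be told apart from that row either. The allele is carried in the germline, and is not limited to 1 cell type. All 6 granule cell and all 6 Purkinje cell markers, which define cerebellum, were well above background on all 16 arrays.

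Complex II (succinate dehydrogenase) passes electrons from succinate to ubiquinone, complex III passes them on to cytochrome c, and complex IV (cytochrome c oxidase) hands them to oxygen. Complex V, the ATP synthase, uses the proton gradient that complexes III and IV help to build. Several subunits have paired genes with preferred tissues, such as muscle and heart forms of the small subunits of complex IV, and NADH, the reduced form of NAD+, feeds the chain through complex I.

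Promoters of the 4 genes that rose with NR and had a promoter sequence are shown, with the letters of motifs of known regulators of respiratory genes where they occur. RefSeq gave promoter sequences (build GRCm38.p6) for 37 members, 40 promoters in all, each with 250 bases before and 50 after the start of transcription. Capitals mark matches, on either strand, to GCGCA and GCGC with any 1 base between them (NRF1, nuclear respiratory factor 1), CCGGAAG (ETS factors such as GABP), AAGATGGC (YY1) or TNAAGGTCA (estrogen-related receptors), and the marked matches do not overlap. Each sequence runs 5′ to 3′ on the strand of its gene, which is the minus strand for all 4 (Atp5c1 chr2:10080383-10080682, Atp5g3 chr2:73911277-73911576, Atp5h chr11:115419870-115420169, Uqcrfs1 chr13:30545267-30545566).
Atp5c1: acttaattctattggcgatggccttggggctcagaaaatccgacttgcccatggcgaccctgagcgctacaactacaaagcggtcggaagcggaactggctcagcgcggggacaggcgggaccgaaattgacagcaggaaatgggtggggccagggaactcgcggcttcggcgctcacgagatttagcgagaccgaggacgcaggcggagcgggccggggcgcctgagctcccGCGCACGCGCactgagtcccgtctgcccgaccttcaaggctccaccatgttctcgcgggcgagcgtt
Atp5g3: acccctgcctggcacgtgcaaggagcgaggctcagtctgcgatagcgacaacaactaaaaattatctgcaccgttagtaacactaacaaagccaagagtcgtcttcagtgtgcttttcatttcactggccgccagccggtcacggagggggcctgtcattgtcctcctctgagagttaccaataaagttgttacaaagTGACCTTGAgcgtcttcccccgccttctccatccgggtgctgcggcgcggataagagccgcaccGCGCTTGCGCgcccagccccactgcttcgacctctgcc
Atp5h: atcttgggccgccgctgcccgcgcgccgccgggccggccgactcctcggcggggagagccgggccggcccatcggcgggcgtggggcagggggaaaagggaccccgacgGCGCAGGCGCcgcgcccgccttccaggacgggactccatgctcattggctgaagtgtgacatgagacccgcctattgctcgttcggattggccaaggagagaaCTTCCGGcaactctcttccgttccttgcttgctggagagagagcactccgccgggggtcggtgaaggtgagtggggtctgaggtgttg
Uqcrfs1: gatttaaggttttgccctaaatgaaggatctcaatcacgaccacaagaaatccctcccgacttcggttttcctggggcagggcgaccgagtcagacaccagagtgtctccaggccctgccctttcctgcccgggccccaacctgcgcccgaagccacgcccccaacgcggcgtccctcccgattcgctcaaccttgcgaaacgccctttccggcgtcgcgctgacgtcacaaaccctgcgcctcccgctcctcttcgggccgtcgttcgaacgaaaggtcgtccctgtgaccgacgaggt
The Atp5c1 promoter held the NRF1 letters, Atp5g3 held the NRF1 and estrogen-related receptor letters, Atp5h held the NRF1 and ETS letters, and Uqcrfs1 held none of the 4 motifs. Over all 40 member promoters the NRF1 letters stood in 10 (25.0%), against 4.6% of all 32851 mouse promoters of the same length. The ETS letters stood in 13 member promoters (32.5% against 8.86%), the YY1 letters in 3 (7.5% against 2.75%) and the estrogen-related receptor letters in 2 (5.0% against 1.28%). These shares describe letters in a window and not binding. Atp5c1 has another annotated start with no match, and of the 7 genes that changed with NR, Cox6c and Uqcrq had no promoter sequence and Cox6b2 had no match.

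Some arrays stood apart in ways that touched the members. On WT veh 1, 123 probes lay far below the other 15 arrays (0 to 11 such probes on any of the others), 122 of them in the first 40 of 164 columns of the array, and Uqcrc2, Cox6b1 and Sdhc were among them. WT veh 4 was high in choroid plexus markers (Ttr 18.05 on the log2 scale) and Atm-/- veh 3 in blood genes (Hba-a1 18.63). WT veh 4 was also high in the forebrain list (mean 10.31, against 5.65 to 7.56 on the other arrays). It had the lowest means of the granule cell (14.61) and Purkinje cell (15.90) lists. The labels give all mice as male, but no Y-linked gene was detected on Atm-/- NR 4, on Atm-/- veh 3 or on WT NR 1 and 4. The software placed 34945 to 42559 probes per array well above background, and every Atm-/- NR array (34945 to 37817) lay below every Atm-/- veh array (39134 to 41905), and the part of this in the NR changes was not tested. One Atm probe read 8.51 to 9.04 in WT and 7.70 to 8.10 in Atm-/-, while for the other the WT NR and Atm-/- NR arrays overlapped, and whether either lies in the deleted part was not known. All values below are log2 signals after quantile normalization over the arrays, a member is represented by its brightest probe, and a change is a difference of log2 means with its standard error (SE) and limma's Benjamini-Hochberg adjusted p over all probes. A change was called where that p was under 0.05.

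NR raised a few subunits of complexes III, IV and V by small amounts, and the share of members called was close to that of all genes. Over both genotypes together, 7 of 46 members were called (15.2%), against 13.4% of all 16733 named genes and 18.1% of the brightest 10% of them, in which 38 of the members lay. Uqcrfs1, Uqcrq, Cox6c, Atp5c1, Atp5g3 and Atp5h rose, by 0.16 to 0.32 on the log2 scale, and Cox6b2 fell by 0.32. Among all genes 7.45% were called higher and 5.93% lower. At an unadjusted p under 0.05, 15 of 46 members were higher, a larger share than the 17.2% of all genes. Lower were 2 of 46, a smaller share than the 13.8% of all genes. The brightest 10% are not set beside these unadjusted shares, so brightness may enter them. By direction alone, 37 of 46 (80.4%) were higher with NR, with a median change of 0.09, against 52.6% of all named genes (median 0.01) and 60.6% of the brightest 10% (median 0.04). Over all probes, the baseline used for the settings that follow, the median was -0.0074. On the 12 arrays with a Y-linked signal, 0 members were called, while 2131 probes were called in place of 4035, and 29 of 46 members were higher (median 0.05; all probes -0.03). Leaving out the arrays with other-tissue markers or low columns (WT veh 1, WT veh 4 and Atm-/- veh 3) was a choice made after the data were seen. It left 5 members called, with the count over all probes not given here. Of 47 members 34 were higher (median 0.04, all probes -0.02). The median was 0.06 without WT NR 4, with array weights or with the mean over a gene's probes.

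Within Atm-/- mice, NR was called for 2 of 46 members, Atp5c1 and Uqcrfs1, both higher. That is 4.35% of the members, below the 11.5% of all named genes (6.68% higher and 4.79% lower). At an unadjusted p under 0.05, 14 of 46 members were higher, a larger share than the 17.5% of all genes. Lower were 2 of 46, a smaller share than the 13% of all genes. In direction, 35 of 46 were higher (median 0.12, all named genes 0.04). Leaving out Atm-/- veh 1, Atm-/- veh 4, Atm-/- NR 2 or Atm-/- NR 3 left 0 members called, with Atp5c1 at 0.27 to 0.31 and Uqcrfs1 at 0.31 to 0.34. Without Atm-/- NR 4 the 1 call was Atp5c1, and without Atm-/- veh 3 it was Cox6b2, lower (-0.49, adjusted p = 0.0465), with Atp5c1 at 0.28 (adjusted p = 0.0541) and Uqcrfs1 at 0.32 (adjusted p = 0.0801). Leaving out Atm-/- veh 2 gave 8 calls, WT veh 4 gave 7 and WT veh 1 gave 4. How many of all genes were called in those fits is not given here. The median of 0.12 was 0.08 without Atm-/- veh 3 (30 of 46 higher), 0.08 without the 3 arrays that stand apart and 0.07 with the mean over a gene's probes (all genes 0.02). Within WT mice limma called 0 of 46 members and 0% of all genes for NR. There, 4 of 46 members (Atp5c1, Atp5g3, Atp5pb and Uqcrfs1) were higher at an unadjusted p under 0.05. This is a larger share than the 4.03% of all genes, and 0 members were lower (all genes 4.8%). The t-test of the study's methods passed 5 at its unadjusted threshold. In direction, 36 of 46 were higher (median 0.07, all named genes -0.01). That median was 0.12 without WT veh 2, 0.11 without WT NR 2, 0.05 without WT NR 4 and 0.04 on arrays with a Y-linked signal. The difference between both NR effects was called for 0 members and 0% of genes, with 1 member (Cox6a1) under an unadjusted p of 0.05 against 5.96% of genes. The comparison over both genotypes uses the same arrays as those within each.

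**Figure D1:**
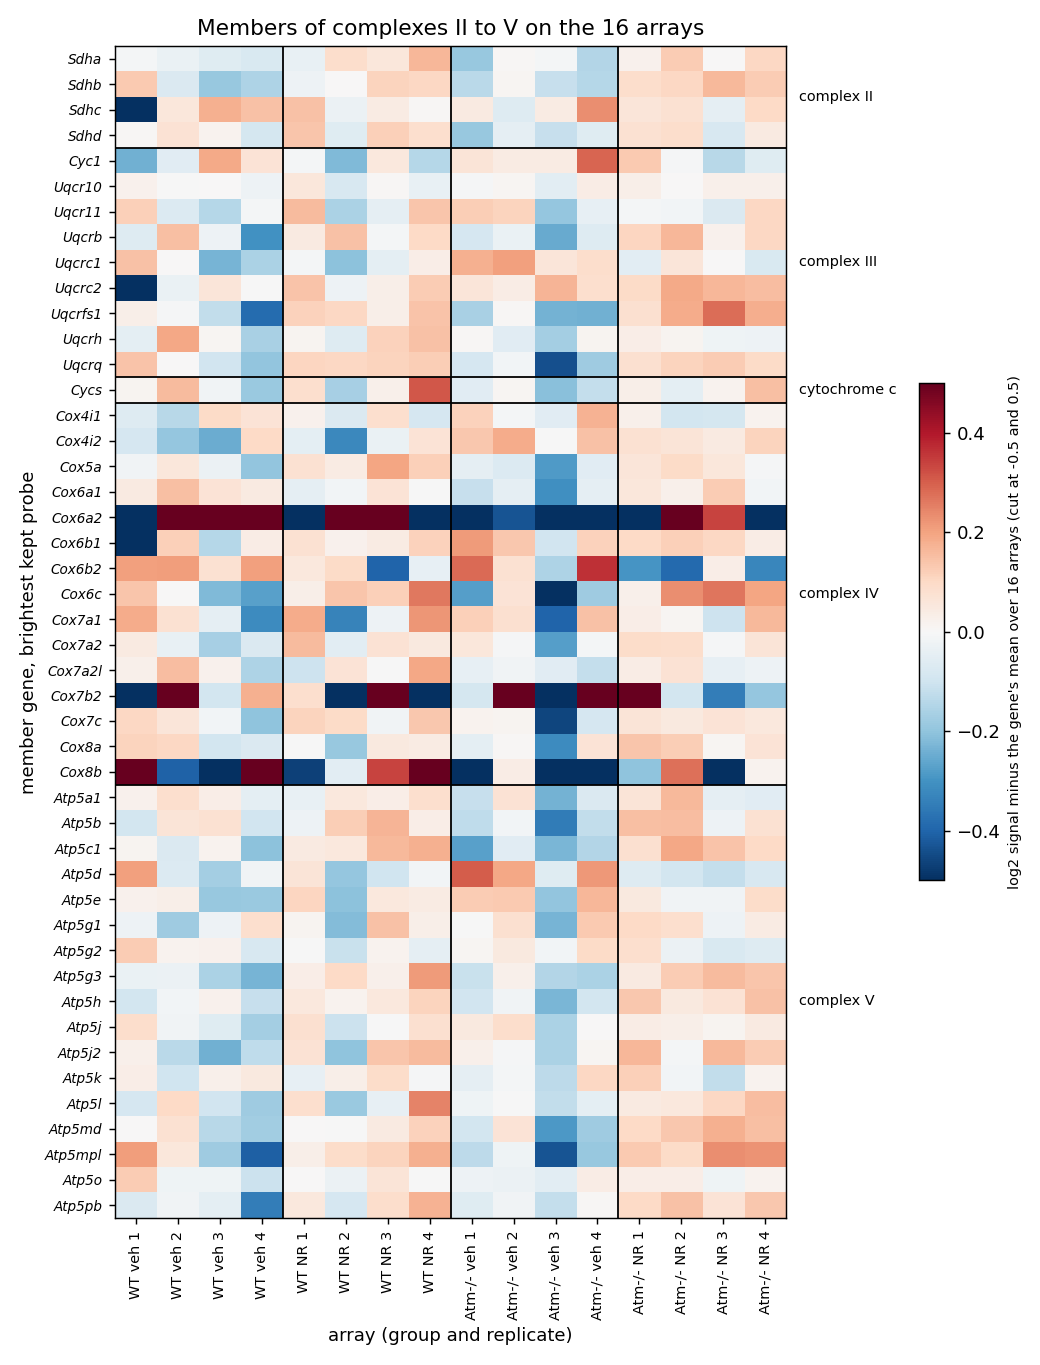
Log2 signal of each of the 46 members minus its mean over all 16 arrays, with members in rows by complex and arrays in columns by group. In most rows the arrays differ by less than 1 log2 unit, while Cox6a2, Cox7b2 and Cox8b vary far more, and Uqcrc2, Cox6b1 and Sdhc are low on WT veh 1.

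By complex, the median NR change over both genotypes was 0.12 for complex II (4 of 4 genes higher, 0 called), 0.05 for complex III (7 of 9 higher, 2 called), 0.10 for cytochrome c, 0.05 for complex IV (10 of 15 higher, 1 called higher and 1 lower) and 0.12 for complex V (15 of 17 higher, 3 called). In complex II, Sdhc was 1.06 lower on WT veh 1 than the mean of the other arrays. Its other WT veh arrays read 14.17 to 14.29, and WT NR read 14.08 to 14.26. In Atm-/- alone 3 of the 4 genes were higher and 1 was lower (-0.02). The other probes of Sdha and Sdhb were also lower over both genotypes (-0.12 and -0.05). The 44 measured genes of complex I, which the name rule leaves out, had a median of 0.09 with 31 higher and 8 called (18.2%). They were taken by names starting with Nduf, without Ndufa4, a rule that takes assembly factors named Ndufaf as well as subunits. The mean of all 46 members, each set to its own mean over the arrays, ran from -0.08 to 0.08 in WT veh, -0.01 to 0.08 in WT NR, -0.23 to 0.03 in Atm-/- veh and 0.02 to 0.07 in Atm-/- NR. The lowest array was Atm-/- veh 3, and the NR and water groups overlapped in both genotypes. By complex, the Atm-/- NR arrays lay above the Atm-/- veh arrays for complex II (lowest 0.0095 against highest -0.0236), complex III (0.0437 against 0.0337) and complex V (0.0396 against 0.0315), and overlapped them for complex IV and cytochrome c. The complex I genes lay apart in the same way (0.0526 against 0.0166), so this was not particular to complexes II, III and V.

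**Figure D2:**
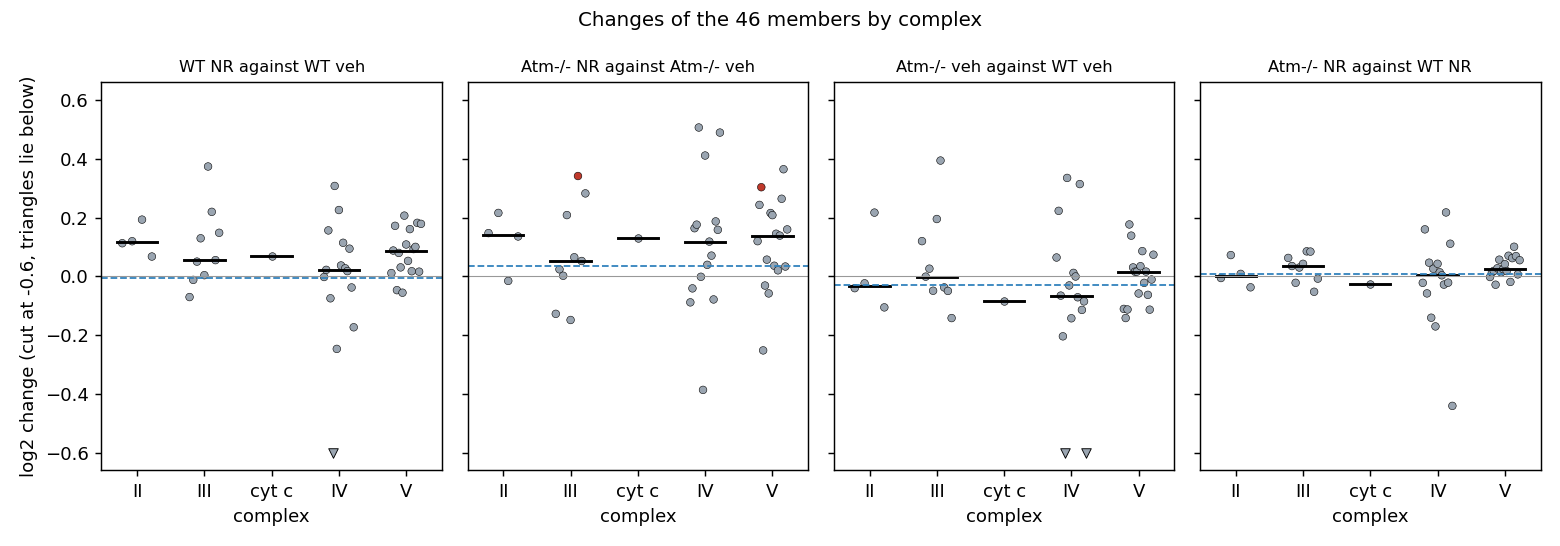
Log2 change of each member (1 point) by complex in the 4 comparisons of 2 groups, with black bars for the median of a complex, a dashed line for the median of all named genes, red for the called members and triangles for values below -0.6. Points of complexes II and V lie mostly above the dashed line in the 2 NR panels, and the called points are Uqcrfs1 and Atp5c1.

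In complex II, the catalytic pair was higher with NR without passing the test. Sdha, the flavoprotein that oxidizes succinate, read 15.31, 15.28, 15.26 and 15.24 in WT veh, 15.28, 15.41, 15.37 and 15.48 in WT NR, 15.13, 15.32, 15.31 and 15.17 in Atm-/- veh and 15.34, 15.44, 15.32 and 15.42 in Atm-/- NR. Its change over both genotypes was 0.13 ± 0.0483 (SE, adjusted p = 0.0993), and 1 or more arrays overlapped in each genotype. Sdhb, the iron-sulfur subunit, read 16.60, 16.39, 16.27 and 16.31 in WT veh, 16.44, 16.47, 16.57 and 16.57 in WT NR, 16.33, 16.48, 16.35 and 16.32 in Atm-/- veh and 16.55, 16.57, 16.63 and 16.59 in Atm-/- NR. Every Atm-/- NR array lay above every Atm-/- veh array for Sdhb (0.22 ± 0.0761 SE, adjusted p = 0.0884 in Atm-/-), but 1 WT veh array was the highest of the WT mice. The other probes of Sdha and Sdhb went the other way over both genotypes, by -0.12 and -0.05, neither called. Sdhc, a membrane anchor shown because of 1 array, read 13.12, 14.17, 14.29 and 14.26 in WT veh, 14.26, 14.08, 14.16 and 14.12 in WT NR, 14.16, 14.05, 14.16 and 14.35 in Atm-/- veh and 14.18, 14.19, 14.07 and 14.21 in Atm-/- NR, with WT veh 1 alone below 14.

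In complex III, Uqcrfs1 and Uqcrq rose with NR. Uqcrfs1, the Rieske iron-sulfur protein that takes the first electron from ubiquinol, read 15.61, 15.58, 15.46 and 15.20 in WT veh, 15.70, 15.69, 15.61 and 15.73 in WT NR, 15.42, 15.59, 15.35 and 15.34 in Atm-/- veh and 15.66, 15.77, 15.86 and 15.76 in Atm-/- NR. The difference was 0.34 ± 0.0921 (SE, adjusted p = 0.0356) in Atm-/-, 0.22 ± 0.0921 (SE, adjusted p = 0.62) in WT and 0.28 ± 0.0651 (SE, adjusted p = 0.0181) over both, so that it was called in Atm-/- and over both. No NR array overlapped the water arrays of its genotype, though in WT the highest water array and the lowest NR array both read 15.61. Uqcrq, a small subunit next to cytochrome b, read 17.25, 17.11, 17.01 and 16.91 in WT veh, 17.21, 17.21, 17.22 and 17.23 in WT NR, 17.02, 17.09, 16.67 and 16.93 in Atm-/- veh and 17.18, 17.21, 17.23 and 17.20 in Atm-/- NR. It rose by 0.21 ± 0.0646 (SE, adjusted p = 0.0479) over both genotypes, with the Atm-/- groups apart and 1 WT veh array above all of WT NR. This call sat at the threshold, and with 1 array left out in turn it was made in 2 of 16 fits (Atp5h also in 2, Cox6b2 in 4 and Cox6c in 5). It was lost with no filter on dim probes (adjusted p = 0.0621) and with a block for replicate number (adjusted p = 0.0575). The 8 NR arrays lay between 17.18 and 17.23, and the wider spread was in the mice on water.

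Cyc1, the cytochrome c1 subunit, went the other way without passing the test: it read 15.14, 15.32, 15.57 and 15.45 in WT veh, 15.37, 15.16, 15.43 and 15.24 in WT NR, 15.45, 15.42, 15.42 and 15.67 in Atm-/- veh and 15.51, 15.37, 15.24 and 15.32 in Atm-/- NR, with a change of -0.10 ± 0.0728 (SE, adjusted p = 0.401) over both genotypes. The groups overlapped, and Atm-/- veh 4 stood above the rest of its group. Cycs, the soluble carrier cytochrome c, read 15.94, 16.09, 15.91 and 15.75 in WT veh, 16.01, 15.76, 15.96 and 16.24 in WT NR, 15.88, 15.94, 15.72 and 15.81 in Atm-/- veh and 15.96, 15.88, 15.95 and 16.08 in Atm-/- NR. Its change was 0.10 ± 0.0719 (SE, adjusted p = 0.392), and NR and water arrays overlapped in both genotypes.
The core proteins did not pass either. Uqcrc1 read 15.68, 15.54, 15.30 and 15.38 in WT veh, 15.53, 15.33, 15.49 and 15.57 in WT NR, 15.72, 15.74, 15.60 and 15.62 in Atm-/- veh and 15.48, 15.60, 15.54 and 15.46 in Atm-/- NR, a difference of -0.07 ± 0.0614 (SE, adjusted p = 0.473) with NR over both genotypes. Uqcrc2 read 14.53, 15.75, 15.85 and 15.79 in WT veh, 15.93, 15.76, 15.82 and 15.91 in WT NR, 15.85, 15.82, 15.96 and 15.87 in Atm-/- veh and 15.88, 15.98, 15.95 and 15.94 in Atm-/- NR, and WT veh 1 was more than 1 log2 unit below every other array. That array set its largest differences: NR in WT gave 0.37 ± 0.216 (SE, adjusted p = 0.735), and 0.06 without WT veh 1.

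Complex IV held both directions. Cox6c, a small nuclear subunit, read 17.11, 16.97, 16.75 and 16.70 in WT veh, 17.001, 17.11, 17.09 and 17.24 in WT NR, 16.70, 17.04, 16.43 and 16.79 in Atm-/- veh and 16.996, 17.20, 17.24 and 17.17 in Atm-/- NR. It rose by 0.32 ± 0.0878 (SE, adjusted p = 0.0346) over both genotypes, with 0.41 ± 0.124 (SE, adjusted p = 0.0537) in Atm-/-, and in each genotype 1 array on water reached the range of NR. Cox6b2, the isoform best known from testis, read 10.81, 10.81, 10.68 and 10.81 in WT veh, 10.65, 10.70, 10.20 and 10.56 in WT NR, 10.88, 10.68, 10.45 and 10.97 in Atm-/- veh and 10.31, 10.21, 10.63 and 10.28 in Atm-/- NR, and fell over both genotypes (-0.32 ± 0.0943 SE, adjusted p = 0.0462). In WT only the lowest water array reached the NR range, and in Atm-/- the ranges crossed at 1 array of each group. Its partner Cox6b1, the widely expressed form, read 12.67, 13.77, 13.51 and 13.69 in WT veh, 13.73, 13.68, 13.69 and 13.77 in WT NR, 13.86, 13.79, 13.56 and 13.77 in Atm-/- veh and 13.75, 13.77, 13.76 and 13.69 in Atm-/- NR. WT veh 1 stood below all the others, and the NR difference in WT was 0.31 ± 0.18 (SE, adjusted p = 0.74) with it and 0.06 without it.

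None of the other widely expressed subunits of complex IV that were tested passed. Cox4i1, the form of subunit IV common to most tissues, read 17.34, 17.27, 17.50 and 17.48 in WT veh, 17.43, 17.34, 17.49 and 17.32 in WT NR, 17.52, 17.40, 17.35 and 17.58 in Atm-/- veh and 17.43, 17.31, 17.32 and 17.42 in Atm-/- NR, a change of -0.05 ± 0.0551 (SE, adjusted p = 0.631) with NR over both genotypes. Cox6a1 read 18.61, 18.72, 18.64 and 18.61 in WT veh, 18.52, 18.55, 18.64 and 18.56 in WT NR, 18.45, 18.52, 18.26 and 18.52 in Atm-/- veh and 18.62, 18.59, 18.69 and 18.55 in Atm-/- NR. It was the one named member of complex IV whose WT veh and Atm-/- veh arrays did not overlap, and with NR the Atm-/- arrays lay in the WT range. The NR difference of Cox6a1 was 0.18 ± 0.0702 (SE, adjusted p = 0.126) in Atm-/-, where the groups were apart, and -0.07 ± 0.0702 (SE, adjusted p = 0.858) in WT. Cox5a, another subunit found in most tissues, read 17.21, 17.29, 17.20 and 17.03 in WT veh, 17.31, 17.27, 17.43 and 17.35 in WT NR, 17.19, 17.16, 16.95 and 17.17 in Atm-/- veh and 17.29, 17.33, 17.29 and 17.22 in Atm-/- NR. Its difference was 0.16 ± 0.0533 (SE, adjusted p = 0.0692) over both genotypes, with the Atm-/- groups apart and the WT groups overlapping. Cox7a2 read 16.35, 16.26, 16.14 and 16.23 in WT veh, 16.46, 16.25, 16.37 and 16.35 in WT NR, 16.36, 16.30, 16.03 and 16.29 in Atm-/- veh and 16.39, 16.39, 16.30 and 16.36 in Atm-/- NR, a change of 0.12 ± 0.0574 (SE, adjusted p = 0.209). Both NR groups overlapped their water groups. Cox7a2l, which helps to join complexes III and IV, read 16.11, 16.24, 16.11 and 15.93 in WT veh, 15.99, 16.16, 16.09 and 16.28 in WT NR, 16.05, 16.07, 16.03 and 15.97 in Atm-/- veh and 16.12, 16.16, 16.05 and 16.06 in Atm-/- NR, a change of 0.05 ± 0.056 (SE, adjusted p = 0.61). Cox8a read 18.07, 18.06, 17.86 and 17.88 in WT veh, 17.95, 17.77, 18.003 and 17.996 in WT NR, 17.90, 17.96, 17.64 and 18.02 in Atm-/- veh and 18.09, 18.08, 17.97 and 18.02 in Atm-/- NR, a change of 0.06 ± 0.0649 (SE, adjusted p = 0.584). For Cox7a2, Cox7a2l and Cox8a the spread within a group was as wide as the difference between groups.
Cox7b was outside the test because of the marked spot. With that spot kept, it read 15.55, 15.83, 15.78 and 15.81 in WT veh, 16.01, 15.90, 15.97 and 16.14 in WT NR, 15.85, 15.94, 15.78 and 15.91 in Atm-/- veh and 15.98, 15.96, 16.03 and 16.03 in Atm-/- NR and was higher in all WT NR arrays than in any WT veh array. Its change over both genotypes was then 0.20 ± 0.0545 (SE, adjusted p = 0.0355), called, a choice made after the data were seen. The marked spot was on WT veh 1, and its value (15.55) was the lowest of all arrays, which enlarges this rise. The change of Cox7b without that array is not given here.

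In complex V, 3 subunits rose and 15 of 17 were higher with NR. Atp5c1, the gamma subunit that turns inside the catalytic head, read 17.01, 16.92, 17.01 and 16.79 in WT veh, 17.04, 17.05, 17.16 and 17.17 in WT NR, 16.73, 16.94, 16.77 and 16.85 in Atm-/- veh and 17.07, 17.19, 17.14 and 17.09 in Atm-/- NR. The difference was 0.30 ± 0.0728 (SE, adjusted p = 0.0235) in Atm-/-, 0.17 ± 0.0728 (SE, adjusted p = 0.624) in WT and 0.24 ± 0.0515 (SE, adjusted p = 0.014) over both, and NR and water arrays did not overlap in either genotype. Atp5g3, one of 3 genes for the same c-ring protein, read 17.09, 17.09, 16.96 and 16.89 in WT veh, 17.15, 17.22, 17.14 and 17.33 in WT NR, 17.01, 17.15, 16.97 and 16.96 in Atm-/- veh and 17.17, 17.25, 17.28 and 17.26 in Atm-/- NR. It rose by 0.21 ± 0.0515 (SE, adjusted p = 0.0219) over both genotypes, again with no overlap in WT or in Atm-/-. Atp5h, subunit d of the stalk that holds the head still, read 17.37, 17.45, 17.49 and 17.35 in WT veh, 17.52, 17.48, 17.52 and 17.58 in WT NR, 17.37, 17.45, 17.24 and 17.37 in Atm-/- veh and 17.60, 17.51, 17.54 and 17.61 in Atm-/- NR. It rose by 0.16 ± 0.045 (SE, adjusted p = 0.039), with the Atm-/- groups apart and the WT groups touching at 1 array. On WT veh 4 and Atm-/- veh 3, the arrays with markers of other tissues, these 3 genes had the lowest or the next to lowest value of their group. Without them and WT veh 1, the differences over both genotypes were 0.21 for Atp5c1 (adjusted p = 0.0411), 0.19 for Atp5g3 (adjusted p = 0.0591) and 0.11 for Atp5h (adjusted p = 0.131). The same arrays left Uqcrfs1 at 0.24 (adjusted p = 0.0356), Uqcrq at 0.17 (adjusted p = 0.0399), Cox6c at 0.27 (adjusted p = 0.0519) and Cox6b2 at -0.35 (adjusted p = 0.0619). On the 12 arrays with a Y-linked signal, Atp5c1 was 0.23 (adjusted p = 0.0743) and Uqcrfs1 0.25 (adjusted p = 0.114) higher.

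**Figure D3:**
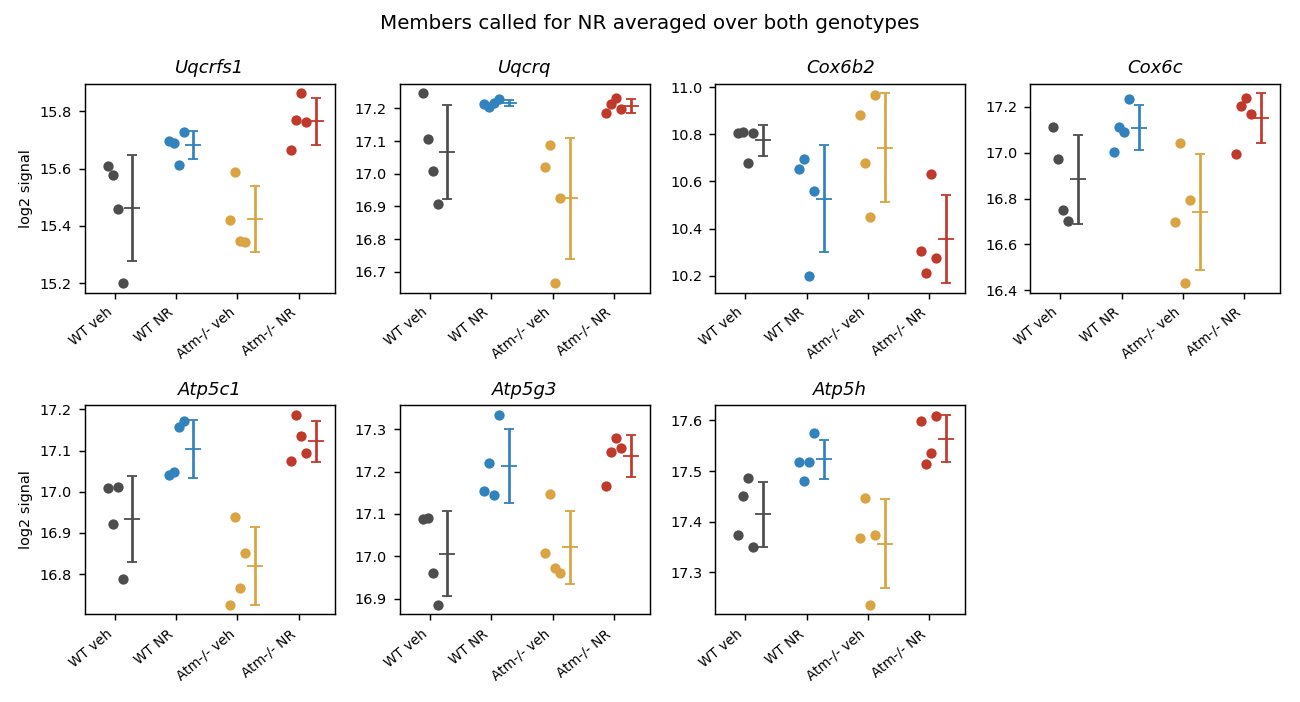
Log2 signal of the 7 members called for NR over both genotypes, 1 panel per gene and 1 point per mouse, with the mean and SD of each group of 4. Uqcrfs1, Atp5c1 and Atp5g3 show no overlap between NR and water in either genotype, and Cox6b2 is the one that falls.

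The other c-ring genes did not follow Atp5g3. Atp5g1 read 16.52, 16.37, 16.52 and 16.63 in WT veh, 16.56, 16.33, 16.69 and 16.58 in WT NR, 16.54, 16.63, 16.31 and 16.68 in Atm-/- veh and 16.65, 16.63, 16.52 and 16.59 in Atm-/- NR, a difference of 0.04 ± 0.0679 (SE, adjusted p = 0.718) over both genotypes. Atp5g2 read 16.53, 16.42, 16.43 and 16.33 in WT veh, 16.41, 16.30, 16.42 and 16.36 in WT NR, 16.42, 16.46, 16.39 and 16.50 in Atm-/- veh and 16.49, 16.38, 16.33 and 16.34 in Atm-/- NR, a difference of -0.06 ± 0.0463 (SE, adjusted p = 0.452). In both genes the groups overlapped. Atp5b, the catalytic beta subunit, read 17.86, 18.02, 18.03 and 17.85 in WT veh, 17.93, 18.08, 18.12 and 17.99 in WT NR, 17.82, 17.94, 17.60 and 17.83 in Atm-/- veh and 18.10, 18.11, 17.93 and 18.03 in Atm-/- NR. Its brightest probe was higher with NR (0.17 ± 0.0592 SE, adjusted p = 0.0876) with overlap at 1 or more arrays in each genotype. Atp5mpl, a small subunit of the membrane part, read 16.34, 16.19, 15.95 and 15.72 in WT veh, 16.16, 16.22, 16.24 and 16.31 in WT NR, 15.996, 16.11, 15.70 and 15.94 in Atm-/- veh and 16.26, 16.22, 16.36 and 16.35 in Atm-/- NR. In Atm-/- its groups were apart (0.36 ± 0.12 SE, adjusted p = 0.0708), and over both genotypes it came just outside the threshold (0.27 ± 0.0847 SE, adjusted p = 0.0534). Atp5d, the delta subunit of the central stalk, was the lowest of complex V with NR in Atm-/-. It read 15.07, 14.80, 14.70 and 14.85 in WT veh, 14.94, 14.68, 14.77 and 14.86 in WT NR, 15.17, 15.06, 14.81 and 15.09 in Atm-/- veh and 14.80, 14.78, 14.75 and 14.79 in Atm-/- NR, a difference of -0.25 ± 0.0955 (SE, adjusted p = 0.109) there, and the water and NR arrays of Atm-/- did not overlap.

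Where a gene had more than 1 probe, the probes did not always give one answer. For 13 members with 15 further probes, 9 of 15 went the same way as the brightest probe with NR over both genotypes, and 3 were called. In Atm-/- alone 7 of 15 went the same way, and in WT alone 8 of 15. Further probes of Cox7c (0.54, adjusted p = 0.0202) and Atp5md (0.30, adjusted p = 0.0128) rose although the brightest probes of both were not called. For Atp5b, the catalytic subunit, a further probe fell by 0.16 (adjusted p = 0.0389) while the brightest was 0.17 higher, so no single direction can be given for that gene. Of the called members only Atp5h had further probes, at 0.09 and -0.01, neither called. Atp5a1, the alpha subunit, was 0.07 higher by its brightest probe and -0.11 by the other, and the probes of Atp5g1 also pointed apart (0.04 and -0.01).

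**Figure D4:**
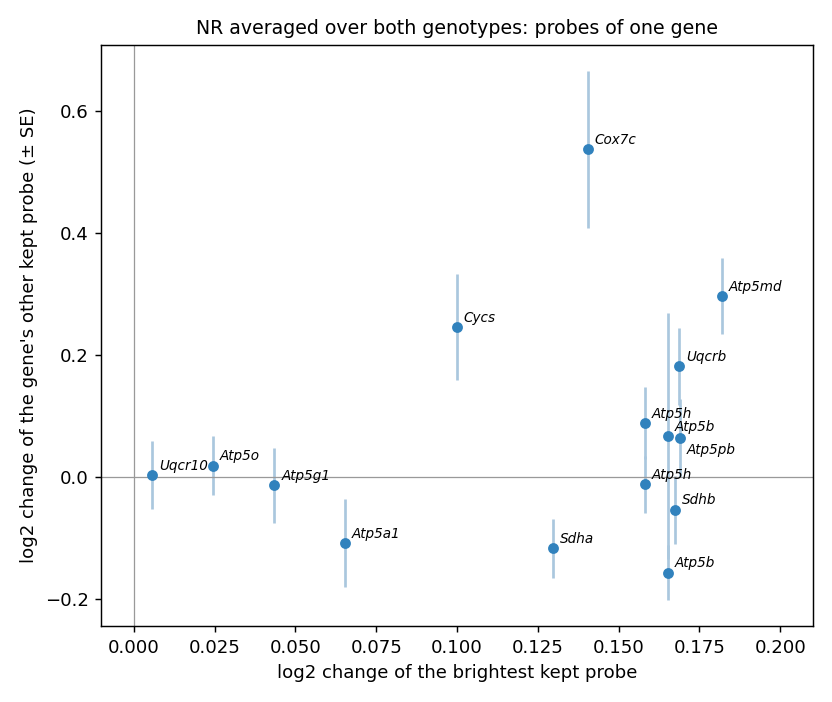
Log2 change with NR over both genotypes by the brightest probe of a member (horizontal axis) and by each of its further probes (vertical axis), 15 probes of 13 genes, with bars for the SE of the further probe. Of the 15 points 9 lie above 0 on the vertical axis, and Atp5b has 1 probe above and 1 below it.

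Loss of Atm gave no member past the test in mice on water. Limma called 0 of 46 members against 0.0538% of all named genes (9 of 16733). The t-test at an unadjusted p under 0.05 passed 1, Cox6a1, with the share of all probes not set beside it. By limma at an unadjusted p under 0.05, Cox4i2 and Uqcrc1 were higher and Cox6a1 and Cox6a2 lower, against 7.09% and 9.74% of all genes. The members' median was -0.02 (all named genes -0.03). Cox6a1 was -0.20 ± 0.0702 (SE, adjusted p = 0.24), and its sign turned to 0.0455 when arrays were scaled to their 75th percentile. Cox4i2, the isoform of subunit IV best known from lung, read 9.45, 9.34, 9.29 and 9.63 in WT veh, 9.49, 9.21, 9.50 and 9.60 in WT NR, 9.67, 9.72, 9.53 and 9.68 in Atm-/- veh and 9.61, 9.60, 9.58 and 9.64 in Atm-/- NR, a difference of 0.22 ± 0.0931 (SE, adjusted p = 0.301) on water. It was the 1 member under an unadjusted p of 0.05 for genotype over both treatments (0.19 ± 0.0658 SE, adjusted p = 0.259), where limma called 0 members, 0.221% of all genes were called and 13.1% passed unadjusted. Between mice on NR, limma called 0 members (0.0598% of all genes), and 0 passed its unadjusted p of 0.05 (4.34% of all genes). The t-test passed 1 at an unadjusted p under 0.05, Atp5md, again without the share of all probes. Uqcrc1 was 0.19 ± 0.0868 (SE, adjusted p = 0.325) on water. Sdhd, Cox5a and Atp5l lie within 10 Mb of Atm, where Atm-/- mice can keep the DNA of the strain in which the allele was made. Their differences on water were -0.11, -0.07 and 0.02, with adjusted p of 0.497, 0.714 and 0.949.

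Among the forms of complex IV subunits best known from muscle, heart or testis, Cox6a2, Cox7b2 and Cox8b were widely scattered, and Cox7a1 and Cox6b2 were not. Cox6a2, the muscle form of subunit VIa, read 6.72, 10.96, 10.999 and 10.26 in WT veh, 6.20, 10.53, 9.11 and 6.72 in WT NR, 7.34, 7.91, 7.47 and 7.25 in Atm-/- veh and 7.14, 8.97, 8.68 and 7.21 in Atm-/- NR. Values above 10 fell on 3 WT veh arrays and 1 WT NR array, and all 4 arrays without a Y-linked signal read 7.47 or less. So did WT veh 1 (6.72), Atm-/- veh 1 (7.34), Atm-/- veh 4 (7.25) and Atm-/- NR 1 (7.14), which had such a signal. The difference on water was -2.24 ± 1.001 (SE, adjusted p = 0.325), and NR over both genotypes was -0.54 ± 0.708 (SE, adjusted p = 0.656), or 0.42 on the 12 arrays with a Y-linked signal, -1.05 without WT veh 1 and -1.17 without the 3 arrays that stand apart. Leaving out 1 other array moved it between -0.94 (without WT NR 2) and -0.22 (without WT NR 1). Cox8b, the muscle and brown fat form of subunit VIII, read 10.14, 8.26, 7.93 and 10.23 in WT veh, 8.20, 8.62, 9.01 and 10.05 in WT NR, 8.16, 8.71, 7.51 and 7.78 in Atm-/- veh and 8.47, 8.95, 8.01 and 8.69 in Atm-/- NR. The arrays near 10 were WT veh 1, WT veh 4 and WT NR 4, and the Atm-/- veh difference (-1.10 ± 0.523 SE, adjusted p = 0.35) became 0.12 without WT veh 1, WT veh 4 and Atm-/- veh 3. Cox7b2, best known from testis, read 8.18, 10.55, 9.60 and 9.87 in WT veh, 9.78, 9.13, 10.28 and 9.08 in WT NR, 9.60, 10.33, 8.54 and 10.98 in Atm-/- veh and 10.70, 9.60, 9.34 and 9.50 in Atm-/- NR, with the lowest value on WT veh 1 and no separation of groups. Cox7a1, the muscle form of subunit VIIa, was steadier and read 12.86, 12.75, 12.62 and 12.35 in WT veh, 12.86, 12.34, 12.65 and 12.89 in WT NR, 12.79, 12.75, 12.27 and 12.82 in Atm-/- veh and 12.70, 12.68, 12.57 and 12.83 in Atm-/- NR, with Atm-/- veh 3 below its group. Its change with NR was 0.04 ± 0.107 (SE, adjusted p = 0.855). Cox8c, a testis form, read 5.53 on WT veh 4 and 5.49 on Atm-/- NR 2, and 2.35 to 2.96 on the other 14 arrays, where it was not well above background. The muscle marker list (5 genes measured) had 0 called with NR over both genotypes, its mean log2 signal ran from 7.08 to 8.88 in WT veh, 7.53 to 7.997 in WT NR, 7.33 to 7.73 in Atm-/- veh and 7.76 to 8.41 in Atm-/- NR, and its part in these values was not tested.

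**Figure D5:**
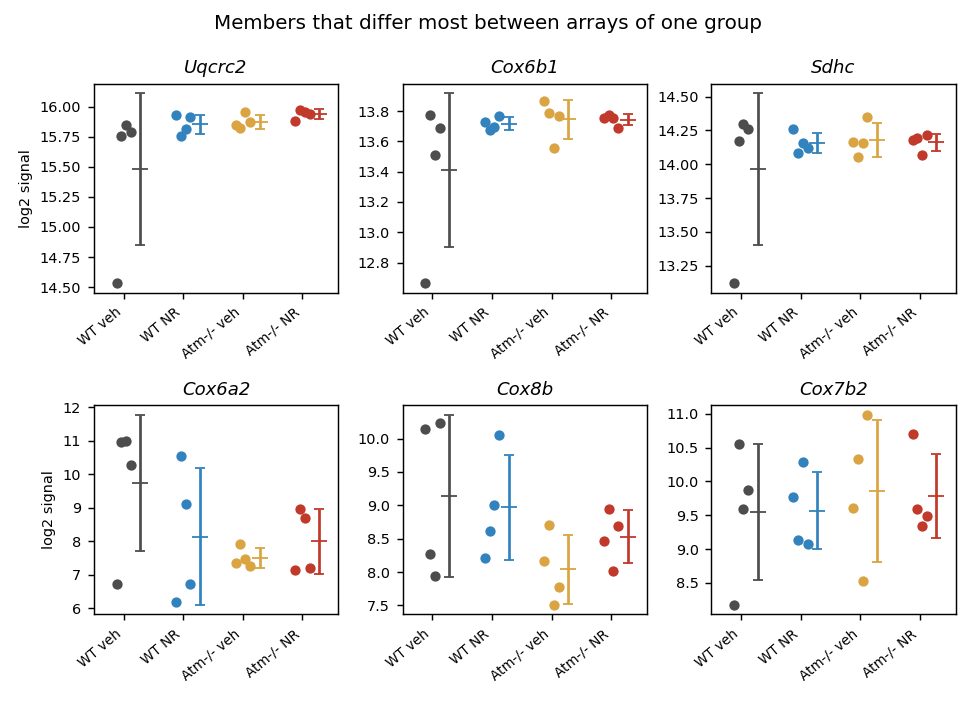
Log2 signal of members with wide spread, 1 point per mouse by group, with the mean and SD of each group of 4. Sdhc was added after its values were seen. Cox6a2 has the widest range of the 6 genes, and the low points of Uqcrc2, Cox6b1 and Sdhc come from WT veh 1.

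Genes that build or regulate these complexes were counted from lists taken from textbook knowledge. Of 28 measured assembly and copper factors of complex IV, 4 rose with NR over both genotypes and 1 fell, which is 17.9% of the list against 13.4% of all named genes and 18.1% of the brightest 10%. Cox11, which carries copper to subunit 1, rose by 0.40 ± 0.0612 (SE, adjusted p = 0.00442). Cox17, the copper chaperone upstream of it, rose by 0.33 ± 0.0648 (SE, adjusted p = 0.0102), while Sco2, which delivers copper to subunit 2, fell (-0.27 ± 0.0664 SE, adjusted p = 0.0231). Of 6 assembly factors of complex III 1 (16.7%) rose, Ttc19, which clears fragments of the Rieske protein (0.34 ± 0.0698 SE, adjusted p = 0.0115). Of 8 factors of complex V 2 (25%) rose, Atpaf1, a chaperone of the beta subunit (0.26 ± 0.0555 SE, adjusted p = 0.0133), and Fmc1 (0.26 ± 0.0531 SE, adjusted p = 0.0108). Of 3 factors of complex II 0 were called. Of 17 transcriptional regulators 2 rose and 1 fell (17.6%), a share again near those of all and of bright genes. Gabpa, the DNA-binding chain of GABP, rose by 0.28 ± 0.0682 (SE, adjusted p = 0.0216), Yy1 rose by 0.21 ± 0.0626 (SE, adjusted p = 0.0489) and Gabpb1, the other chain of GABP, fell (-0.32 ± 0.0704 SE, adjusted p = 0.0154). Ndufa4, now counted with complex IV although its name is of complex I, rose by 0.32 ± 0.0643 (SE, adjusted p = 0.0112). With NR in Atm-/- alone the counts were the same for these lists, and in WT alone and between genotypes 0 were called. Of 12 listed subunits encoded by mitochondrial DNA, 0 had a named probe that passed the filter.
Among marker lists, 1 of 6 Purkinje cell genes (Car8, 1.26) was called higher with NR over both genotypes and 1 of 4 forebrain genes (Neurod6, -0.53) lower. The forebrain list was highest on WT veh 4, an array on water (mean 10.31), and the part of that array in the Neurod6 change was not tested. The other 5 Purkinje genes ranged from -0.10 to 0.08, and the median of all 6 was -0.02. The mean log2 signal of the Purkinje list ran from 15.90 to 16.51 in WT veh, 16.38 to 16.68 in WT NR, 16.17 to 16.61 in Atm-/- veh and 16.47 to 16.65 in Atm-/- NR, and its part in the NR changes was not tested. Oligodendrocyte markers were higher with NR in 5 of 5 genes over both genotypes (median 0.16) and in WT (median 0.35), and in 2 of 5 in Atm-/- (median -0.03), with 0 called. Their mean log2 signal ran from 13.29 to 14.29 in WT veh, 14.08 to 14.77 in WT NR, 13.71 to 13.94 in Atm-/- veh and 13.64 to 13.97 in Atm-/- NR, and their part in the NR changes of WT was not tested. Granule cell, interneuron, astrocyte, microglia, endothelium, blood, choroid plexus and brown fat lists had 0 called.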

How the data were processed

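RNA from the cerebellar cortex of 16 mice was hybridised to 16 Agilent arrays of 1 colour. Scanner files made with Agilent Feature Extraction 12.0.3.1 were deposited, holding for each spot an intensity less its local background, with no scaling from array to array. Besides these, the authors gave z-scores (unit: score) for every array, made by quantile normalization, a log and scaling. RefSeq genes of assembly GRCm38.p6 gave names, by accession, to 32989 of 56605 probes (58.28%), and were used for names, for which genes lie near Atm and for promoter sequences. Groups and replicate numbers came from the sample labels.

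Detection on an array meant that 0.5 or more of a probe's spots were well above background, and a probe was kept if any group had it detected on all of its 4 arrays. The log2 of the intensity was quantile normalized, spots marked as outliers were removed, at the cost of 788 probes, and spots of a probe were averaged, which left 37253 probes. No spot was saturated. Differences were fitted with limma 3.58.1 in R 4.3.3 (tables read with data.table, version 1.17.8) as 4 group means over all arrays, with 12 residual degrees of freedom. Calls needed an adjusted p (Benjamini-Hochberg) under 0.05. For a gene with several kept probes the brightest stood for it, and no probe's level was set against another's. P-values measure the spread between these mice, and the number of arrays limits the precision. The model was tested on simulated data.

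The members and lists were chosen with earlier results of these data known. Values are given for called members, for the 3 largest rises and falls of 5 comparisons, for tissue isoforms and for core subunits; genes outside this rule (Sdhc, Cox5a, and the single markers of arrays that stood apart) were chosen after their values were seen. Alternatives were scaling to the 75th percentile, normexp with an offset of 50, the deposited z-scores, other filters on dim probes, the mean over a gene's probes, each array left out, only the arrays of the groups compared, only arrays with a Y-linked signal, the replicate number as a block, array weights and the methods' t-test. The t-test was run on the z-scores at a p under 0.05. The methods' thresholds on z-ratio, false discovery rate, signal and ANOVA were not applied. Keeping marked spots and leaving out the 3 arrays that stand apart were added after the data were seen. One marker gene is not reported here.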

Additional observations from a re-analysis of the deposited data

Results flagged for a closer look

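Among 29 members whose values are given, each of 116 groups of 4 mice was searched for 1 mouse far from the other 3 by Dixon's rule, which chance alone meets in about 1 of 20 groups, and 5 were found. Uqcrc2 read 14.53 on WT veh 1, with the other WT veh arrays at 15.75 to 15.85. Cox7a1 read 12.27 on Atm-/- veh 3, below the rest of its group at 12.75 to 12.82. Cox6b2 read 10.68 on WT veh 3, against 10.81 on the other 3 WT veh arrays. Cyc1 was high on Atm-/- veh 4 at 15.67 (the others 15.42 to 15.45), and Sdhb on Atm-/- veh 2 at 16.48 (the others 16.32 to 16.35). For no member did the NR effect differ between WT and Atm-/- by the test.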

How the results depend on the processing

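For NR in Atm-/- (2 members called), 9 were called with scaling to the 75th percentile, 6 with normexp, 4 with the deposited z-scores, 5 with only probes detected on all arrays, 5 with the mean over a gene's probes, 12 with array weights, 4 without the 3 arrays that stand apart, 0 on arrays with a Y-linked signal, and 0 to 8 with each array left out in turn. The t-test on z-scores passed 21 at an unadjusted p under 0.05 and 4 after Benjamini-Hochberg, without the methods' other thresholds. The share of all genes called can also move with the setting. It is not set beside these counts or those below, so a larger count need not be particular to the members. For NR over both genotypes (7 called), 14 were called with scaling to the 75th percentile, 0 on arrays with a Y-linked signal and 3 to 9 with each array left out, with Atp5c1, Atp5g3 and Uqcrfs1 called in 16 of 16, Cox6c in 5, Cox6b2 in 4 and Atp5h and Uqcrq in 2 each. Mice with the same replicate number did not deviate together (correlations of deviations from -0.33 to 0.37), so the numbers were not taken as pairs. With the replicate number as a block, 4 members were called for NR over both genotypes and 2 for NR in Atm-/-. The block left Atp5h (adjusted p = 0.0687), Cox6b2 (adjusted p = 0.0657) and Uqcrq (adjusted p = 0.0575) outside the threshold. At an unadjusted p under 0.05 the t-test passed 1 member for genotype on water, 5 for NR in WT and 1 for genotype on NR. Limma called 0 there after adjustment. Of 201 counts of calls by setting, 164 stayed within 1.5 times, 21 were weaker and 16 stronger. A count of 0 against 0 enters there as the same. Limma called 0 members in every comparison but NR in Atm-/- and NR over both genotypes. The 164 therefore say little about how stable the calls of those comparisons were.

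Of 998 recalculated changes of named members, 16 turned direction, none of them past the test. With each array left out in turn, Cox7b2 ran from -0.14 to 0.76 for genotype on water and from -0.087 to 0.46 on NR, Cox8b from -0.58 to 0.19 for NR in WT, and Cox6a2 from -0.78 to 0.66 for genotype on NR. Without the 3 arrays that stand apart, Cox8b was 0.12 for genotype on water and 0.87 for NR in WT, and with array weights the latter was 0.32. Cox6a1 was 0.0455 for genotype on water with scaling to the 75th percentile, and on arrays with a Y-linked signal Cox6a2 was 0.078 for NR in WT and 0.42 over both genotypes. The cause of these shifts was not tested. With 4 mice per group and SEs near 0.07 on the log2 scale, changes of the size seen here sit close to the threshold.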
